A study of Mus musculus with 12 samples.

Results

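Sox9, Sox8 and Sox10 form the SoxE group of transcription factors, and their transcripts were followed in the supporting cells of the mouse gonad while its sex was being set. The members were every probe set annotated to Sox9, Sox8 or Sox10 alone, which gave 7 of the 44238 probe sets tested: 3 for Sox9, 1 for Sox8 and 3 for Sox10. Sox9 lies on mouse chromosome 11, Sox8 on chromosome 17 and Sox10 on chromosome 15. SoxE proteins bind DNA through an HMG box like that of Sry, the Y-linked gene that starts testis development. In the XY gonad Sry switches on Sox9, which turns supporting cell precursors into Sertoli cells and is then kept on by its own protein and by Fgf9 and prostaglandin D2 signals. Sox8 and Sox10 act beside Sox9 in the testis, and elsewhere the group is known for cartilage (Sox9) and for glia and pigment cells of the neural crest (Sox10).

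RNA was measured on 12 Affymetrix mouse arrays, 3 pools of sorted cells for each of 4 groups: XX and XY gonads of E11.5 embryos (embryonic day) and those of E12.5 embryos. The cells are labelled somatic support cells (SSC) and were sorted by flow cytometry from ovary or testis. All 4 groups came from 1 transgenic strain on FVB, whose label joins Cg-Tg(Tyr)3412ARpw, a Tyr transgene, with Tg(Sry-EGFP)92EI, in which Sry sequences drive the green fluorescent protein EGFP. The labels give neither the gate of the sort nor the number of embryos in a pool. Separate litters for the pools are not stated, so the p-values measure only the spread between these pools, which may be technical.

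Values are deposited log2 signals, on which 1 unit is a 2-fold change. The median of all probe set means was 6.57 and the largest value was 14.45. A signal scale has no true zero, and what a probe set reads without its target differs between probe sets. XX cells lack the target of Y-linked genes, and 5 probe sets of such genes that read apart in the sexes gave 3.33 to 5.17 there. Some that did not read apart gave more, among them a Kdm5d probe set at 5.43 to 6.04. A Sry probe set gave 6.82 to 7.39 in XX, but those cells carry the Sry-EGFP transgene, whose part in that reading was not tested. Another, dimmer Sry probe set gave 4.68 to 4.92 in XX. A fold against a group mean of 6.04 or less is given as "at least", as are folds of Sry, and other folds may also be understated. Levels are compared between groups for 1 probe set at a time, never between probe sets or genes. The sex labels held on every array by these probe sets: Xist, the RNA that silences an X chromosome in XX cells, read 12.80 to 12.95 in XX and 6.56 to 7.87 in XY, and Y-linked Eif2s3y read 3.68 to 4.0 in XX and 10.85 to 11.36 in XY. Differences were tested with limma, and adjusted p means the Benjamini-Hochberg value over all 44238 probe sets. A probe set was called at an adjusted p under 0.05. In pools of cells, fewer cells of a type and less RNA per cell cannot be told apart.

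The members were called between the sexes on different days. Sox9 was already 19.8-fold higher in XY than in XX cells at E11.5 and 15.8-fold higher at E12.5 by its brightest probe set. Sox8 and 1 probe set of Sox10 were called higher in XY cells at E12.5, at least 8.95-fold and 3.07-fold, and not at E11.5. The growth of their sex difference between the days was itself called, though both of these calls were lost when some single pools were left out. In XX cells no SoxE probe set was called between the days.

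Sox9 is given first by probe set 1424950_at, the brightest of its 3. At E11.5 it read 5.6, 6.55 and 6.58 in the XX pools and 11.50, 10.04 and 10.11 in the XY pools. At E12.5 it read 6.43, 6.09 and 6.03 in XX and 10.04, 10.16 and 10.28 in XY. Every XY pool lay above every XX pool on both days, which holds for 6.62% of all probe sets at E11.5 and 14.2% at E12.5. XY pool 1 of E11.5 stood above all other arrays.

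The XY minus XX difference of that Sox9 probe set was 4.31 ± 0.38 (SE, n = 3 pools per group) at E11.5, 19.8-fold with a 95% interval of 11 to 35.6 (limma, adjusted p = 0.0014). At E12.5 it was 3.98 ± 0.38, 15.8-fold with an interval of 8.76 to 28.3 (limma, adjusted p = 0.00019). Counted from the most XY-high down, the difference stood 10th of all probe sets at E11.5 and 62nd at E12.5. For the mean of the 3 Sox9 probe sets it was smaller, 2.91 at E11.5 and 2.55 at E12.5 (limma, adjusted p = 0.00027 and 5.1e-05). Between the days the level did not pass the test in XX (-0.06, interval -0.91 to 0.78) or in XY (-0.39, interval -1.24 to 0.45). The change of the sex difference was -0.33 ± 0.54 (limma, adjusted p = 0.83), with an interval of -1.53 to 0.87.

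The second Sox9 probe set, 1451538_at, also parted the sexes on both days. It gave 6.58, 6.18 and 6.32 in XX and 10.33, 9.77 and 10.10 in XY at E11.5, then 7.02, 6.89 and 6.22 in XX and 8.94, 10.09 and 9.35 in XY at E12.5. XY was 13.1-fold higher at E11.5 (3.71 ± 0.30, limma, adjusted p = 0.00069) and 6.74-fold higher at E12.5 (2.75 ± 0.30, limma, adjusted p = 0.00042), again with no overlap of the pools. Here the sex difference was smaller on the later day by 0.96 ± 0.43 on the log2 scale, which did not pass the test (limma, adjusted p = 0.34).

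The third Sox9 probe set, 1433889_at, was dim. Its 6 XX pools read 4.43 to 4.99 and its 6 XY pools 5.06 to 5.74, all XY above all XX, but the XX readings lie among those seen without target. It was called at E12.5 (at least 1.88-fold, 0.91 ± 0.22, limma, adjusted p = 0.03) and not at E11.5 (0.72 ± 0.22, limma, adjusted p = 0.53). The E12.5 call was lost in 5 of the fits that left out a pool, with adjusted p up to 0.11: each XX E12.5 pool, and XY E12.5 pools 2 and 3. Over the 12 arrays the 3 Sox9 probe sets followed each other with r = 0.96, 0.90 and 0.86, arrays that share their sex and day groups.

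At E11.5 few probe sets of any gene separated the sexes by the test. Of the 7 members, 2 were called, both of Sox9, and they were among 24 called higher in XY, 0.0543% of those tested. That count is sensitive to how the spread is estimated: when only the 6 arrays of E11.5 were fitted, the 1424950_at difference was still 4.31 but its adjusted p was 0.23, while 1451538_at stayed called at 0.0072 or below in every alternative.

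**Figure D1:**
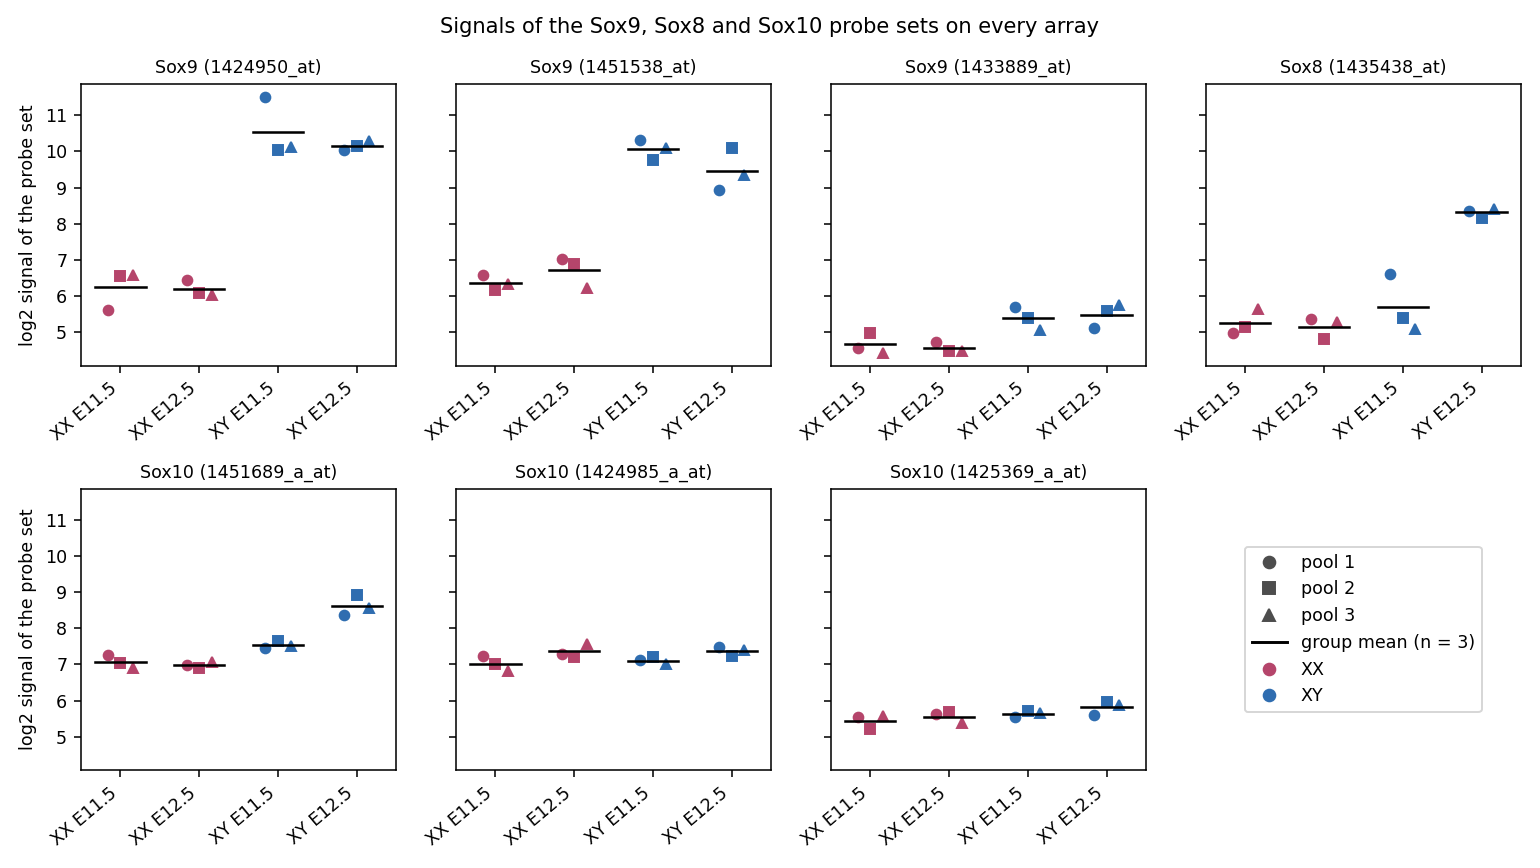
Log2 signal (y axis) of the 7 SoxE probe sets in every pool of the 4 groups (x axis); points are pools and bars are group means. Sox9 1424950_at separates XY from XX on both days, Sox8 rises to between 8.17 and 8.42 in XY at E12.5 alone, and 2 of the 3 Sox10 probe sets overlap between the sexes at E12.5.

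Sox8 has 1 probe set, 1435438_at. At E11.5 it read 4.97, 5.13 and 5.65 in XX and 6.60, 5.40 and 5.10 in XY, so the groups overlapped and only XY pool 1 stood out. At E12.5 it read 5.37, 4.80 and 5.29 in XX and 8.36, 8.17 and 8.42 in XY. The 3 XY pools of E12.5 lay close together and far above all 9 other arrays.

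The E12.5 sex difference of Sox8 was 3.16 ± 0.35, at least 8.95-fold with an interval of 5.24 to 15.3 (limma, adjusted p = 0.00044). Within XY cells Sox8 rose at least 6.14-fold from E11.5 to E12.5 (2.62 ± 0.35, interval 3.60 to 10.5, limma, adjusted p = 0.0022), and in XX cells the difference was -0.10 (interval -0.87 to 0.68). At E11.5 the sex difference was 0.45 ± 0.35 (limma, adjusted p = 0.80), and without XY pool 1 it was -0.0013. The sex difference grew by 2.71 ± 0.49 between the days (limma, adjusted p = 0.024). Leaving out any of 5 pools, XY E11.5 pool 2, XX E12.5 pools 2 and 3 and XY E12.5 pools 1 and 3, left that growth at 2.54 to 2.78 and moved its adjusted p to between 0.058 and 0.068.

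The stretch before the Sox8 start is shown because Sox8 is the only member with a promoter among the RefSeq promoters searched. RefSeq's gene model on GRCm38.p6 places its 250 bases at chr17:25570687-25570936 on the minus strand. They are printed 5′ to 3′, and the capitals mark the single CACGTG, the E-box hexamer, 152 bases before the start.
Sox8: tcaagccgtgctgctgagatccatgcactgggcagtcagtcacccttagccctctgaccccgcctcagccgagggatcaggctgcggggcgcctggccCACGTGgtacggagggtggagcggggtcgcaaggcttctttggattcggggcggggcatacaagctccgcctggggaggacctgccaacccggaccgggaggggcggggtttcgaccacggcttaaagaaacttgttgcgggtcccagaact
The sequence is 65.6% G and C. CACGTG stands in 6.02% of the 32851 RefSeq promoter windows of this length. Other motifs were searched on both strands and 4 of 4 were not in these letters. The SOX-type site AACAAT stands in 9.42% of windows. The other SOX-type site searched, ACAAAG, stands in 16.5%. An Nr5a1-type site, CAAGGTC, stands in 3.32%. The GATA-type site AGATAA stands in 9.99%. A match or its absence describes these letters and nothing about a factor.

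Sox10 was read differently by its 3 probe sets. The brightest on average, 1451689_a_at, gave 7.27, 7.04 and 6.91 in XX and 7.45, 7.65 and 7.50 in XY at E11.5. At E12.5 it gave 6.99, 6.91 and 7.08 in XX and 8.37, 8.91 and 8.56 in XY. All XY pools lay above all XX pools on both days with the wider gap at E12.5. Such a split holds for 6.62% of all probe sets at E11.5 and 14.2% at E12.5.

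This Sox10 probe set was 3.07-fold higher in XY at E12.5 (1.62 ± 0.15, interval 2.44 to 3.88, limma, adjusted p = 0.00016) and rose 2.11-fold within XY cells between the days (1.08 ± 0.15, interval 1.67 to 2.66, limma, adjusted p = 0.0031). At E11.5 the XY value was 0.46 ± 0.15 above XX and not called (limma, adjusted p = 0.61). Its 3 XY pools lay above its 3 XX pools there, as for 6.62% of all probe sets. In XX cells the day difference was -0.08 (interval -0.42 to 0.25). The sex difference grew by 1.16 ± 0.21 between the days (limma, adjusted p = 0.025). That growth lost its call when any of 6 pools was left out: XX E11.5 pool 2, XY E11.5 pool 3, any XX E12.5 pool or XY E12.5 pool 3 (adjusted p = 0.051 to 0.07).

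Sox10 1424985_a_at did not follow. It read 6.82 to 7.23 in XX and 7.0 to 7.2 in XY at E11.5, and 7.21 to 7.57 in XX and 7.24 to 7.48 in XY at E12.5. The sexes overlapped on both days, and the E12.5 difference was 0.01 with an interval of -0.30 to 0.32, which leaves out the 1.62 of its partner. Sox10 1425369_a_at read 5.22 to 5.95 over all 12 arrays, and its E12.5 difference of 0.25 (interval -0.06 to 0.56) was not called (limma, adjusted p = 0.38).

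Across the 12 arrays 1451689_a_at correlated with the other Sox10 probe sets at r = 0.37 and 0.70, and these at 0.14, against 0.86 or more within Sox9. The mean of the 3 Sox10 probe sets was still higher in XY at E12.5, by 0.63 (limma, adjusted p = 0.0029), but its growth between the days was 0.38 and not called (limma, adjusted p = 0.20). The Sox10 growth thus rests on 1 of 3 probe sets, and what part of the transcript each matches was not tested.

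At E12.5, 5 of the 7 member probe sets were called higher in XY, against 3.92% of all probe sets tested; they belong to 3 genes. Between the days in XY cells 2 of 7 were called higher, Sox8 and Sox10 1451689_a_at, against 3.18%. In XX cells 0 of 7 were called, against 3.11% in either direction. Only Sox10 1424985_a_at was there under an unadjusted p of 0.05, at 0.34 with an interval of 0.03 to 0.65. The same 2 probe sets were called for a sex difference that grew, against 0.796%. The day comparison in XY and the E12.5 sex comparison share their XY E12.5 arrays.

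**Figure D2:**
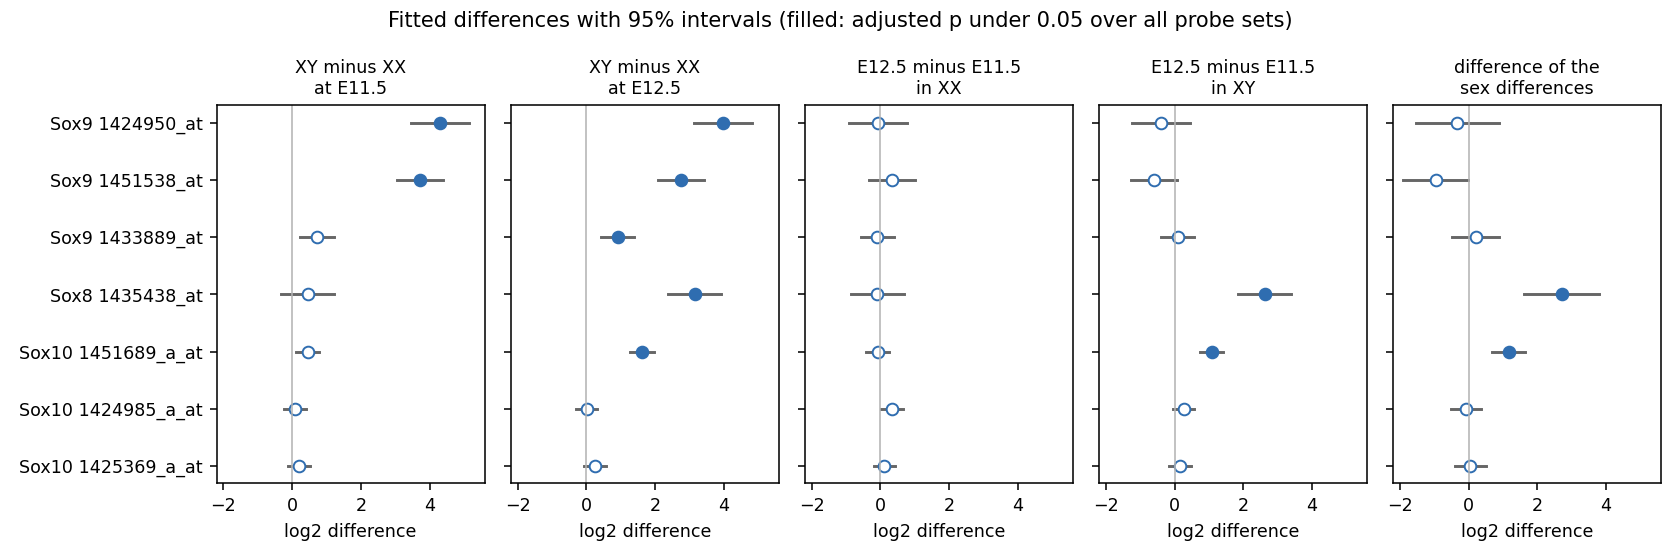
Log2 differences of the 7 SoxE probe sets with 95% intervals for the 5 comparisons. Sox9 1424950_at lies at 4.31 and 3.98 for the sexes at E11.5 and E12.5, while Sox8 lies at 0.45 and 3.16, with its interval at E11.5 spanning 0.

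The XY pools of E11.5 were not alike. Sox9 1424950_at (11.50, 10.04 and 10.11 in pools 1 to 3) and Sox8 (6.60, 5.40 and 5.10) were both highest in pool 1. So was desert hedgehog, Dhh, a Sertoli cell signal to the interstitium, at 9.76, 8.53 and 7.34. Cartilage collagen Col9a3 read 9.49, 8.15 and 7.04. Dhh and Col9a3 had the highest correlations with Sox8 over these same 12 arrays (r = 0.986 and 0.982). Their pool order therefore lends that of Sox8 no separate support. For Dhh and Col9a3 pool 1 lay nearest to the XY E12.5 readings, 12.70 to 12.78 and 12.86 to 13.07, as it did for Sox8. For Sox9 1424950_at it was the pool farthest from them (10.04 to 10.28), and Sox10 1451689_a_at was lowest in pool 1 (7.45, 7.65 and 7.50).

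Of 12 testis genes known to act with or after Sox9, 10 were highest in XY pool 1 and 10 lowest in pool 3 at E11.5. Over all probe sets pool 1 was highest of the 3 in 30.4%, pool 2 in 39.4% and pool 3 in 30.2%. Lowest of the 3 was pool 1 for 16938, pool 2 for 10982 and pool 3 for 16318 of the 44238. Other lists also differed between the pools: of 7 germ cell markers 5 were highest in pool 1 and 6 lowest in pool 3, and of 6 supporting lineage markers 6 were highest in pool 2 and 5 lowest in pool 1. Sry was lowest in pool 1, at 8.20, 8.33 and 8.55. None of these differences between single pools can be tested.

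**Figure D3:**
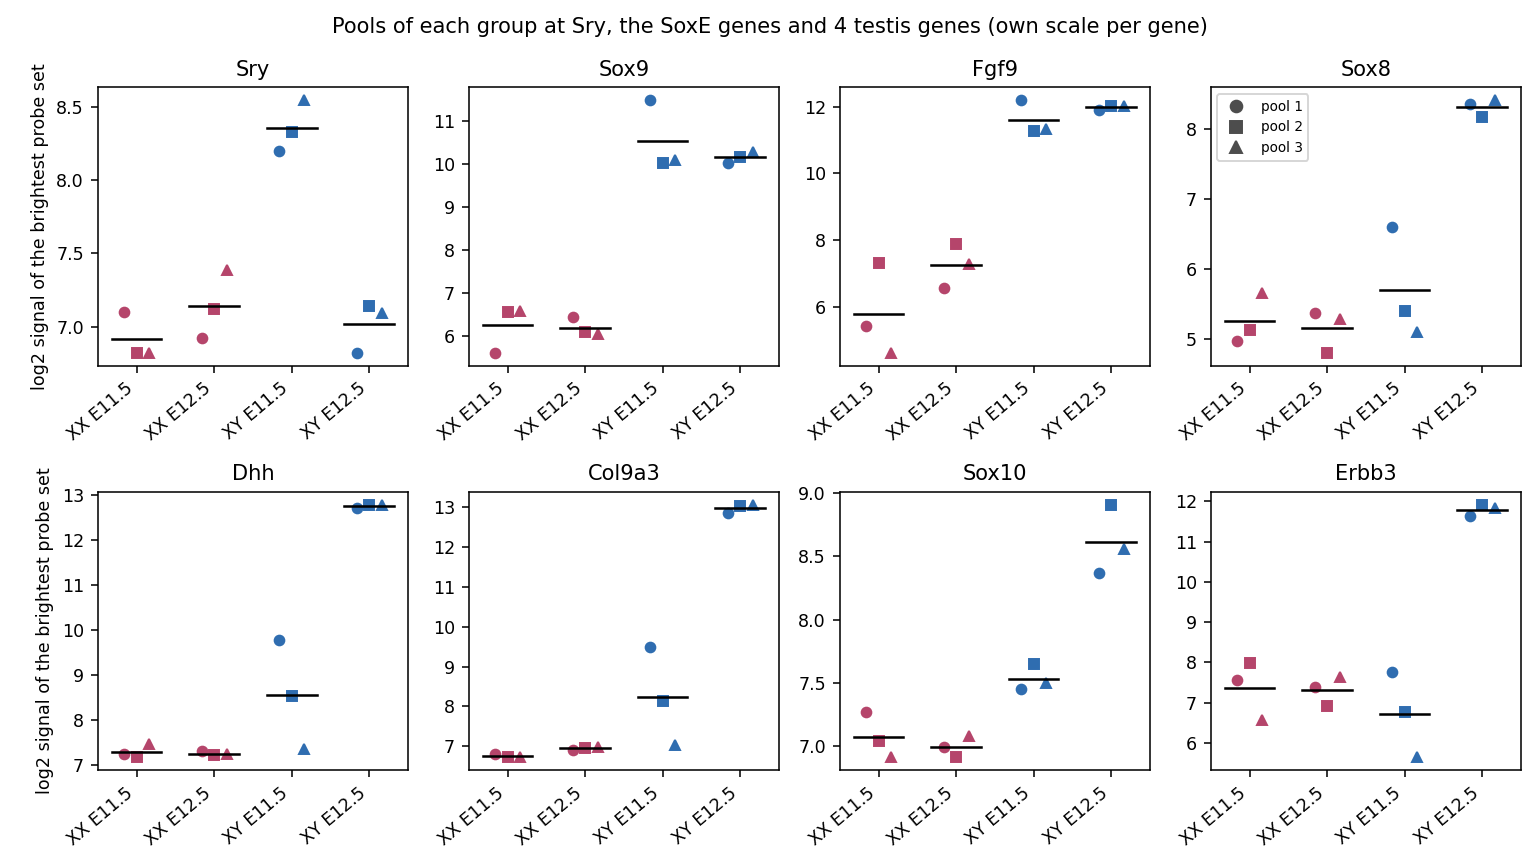
Log2 signal of Sry, the SoxE genes, Fgf9, Dhh, Col9a3 and Erbb3 in every pool of the 4 groups, each gene on its own scale. Of the 3 XY pools of E11.5, Sry is lowest in pool 1 at 8.20, where Sox9 is highest at 11.50.

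Sry itself, the trigger of the pathway, was at least 2.73-fold higher in XY than in XX cells at E11.5 (1.45 ± 0.16, limma, adjusted p = 0.0067) and fell at least 2.54-fold within XY cells by E12.5 (limma, adjusted p = 0.0011). Its XY readings of 6.82, 7.14 and 7.09 at E12.5 lay among the XX readings of 6.82 to 7.39. In those same XY pools Sox9 1424950_at read 10.04 to 10.28, far above XX. The Sry transgene of the strain is shared by all groups, and its part in the Sry signal was not tested. These Sry values are those of its brighter probe set. The dimmer Sry probe set read 4.68 to 4.92 in XX and 4.66 to 5.72 in XY, so by it the sexes overlapped. Its XX readings lie among those seen without target.

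Fgf9, a secreted factor that sustains Sox9, was on from E11.5 as Sox9 was. It read 5.41, 7.30 and 4.61 in XX and 12.21, 11.27 and 11.34 in XY at E11.5, at least 57.1-fold higher in XY (5.84 ± 0.59, limma, adjusted p = 0.0039). At E12.5 it was 26.9-fold higher (4.75, limma, adjusted p = 0.00097). The mean of its 2 probe sets gave 3.70 and 3.51, and the E11.5 difference was 6.60 without XX pool 2 and 5.25 without XX pool 3. When limma was fitted to the 6 arrays of that day only, the E11.5 calls of Fgf9 (adjusted p = 0.28) and of Sry (adjusted p = 0.20) were lost.

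Fgf9 and Sry were the 2 of 15 measured upstream regulators of Sox9 called higher in XY at E11.5, with 0 lower; by 1 probe set per gene, the brightest, 0.05% of the 17996 genes were called higher. The median difference of this list was 0.24, against 0.04 over all genes. Next by p came Nr5a1 at 0.94 and Wt1 at 0.67, nuclear factors needed to build the early gonad, neither called (limma, adjusted p = 0.57 for each).

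By E12.5 the upstream list was split: 4 of 15 were higher in XY (Ptgds, Fgf9, Dmrt1 and Zfpm2) and 2 lower (Lhx9 and Fgfr2), against 5.59% and 5.52% of genes. Ptgds, which makes the prostaglandin D2 that keeps Sox9 on, read 11.98 to 12.82 in XY against 8.0 to 8.54 in XX, 18.2-fold (4.19 ± 0.32, limma, adjusted p = 4.6e-05). Lhx9, a homeobox factor of the early gonad, was 17.6-fold lower in XY (-4.13 ± 0.17, limma, adjusted p = 1.7e-06), and the Fgf9 receptor gene Fgfr2 was 7.06-fold lower (limma, adjusted p = 2.9e-05). With the mean of each gene's probe sets the E12.5 differences were 5.0 for Ptgds, -3.10 for Lhx9 and -1.31 for Fgfr2, all still called. Other lists share Fgf9 and Ptgds with this one.

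Among 17 other Sox genes, all measured, Sox13 and Sox6 were called higher in XY at E12.5 and 0 lower, against 5.59% and 5.52% of genes. Sox13, a SoxD gene, was 2.36-fold higher (1.24 ± 0.16, limma, adjusted p = 0.0012) and also rose 2.12-fold within XY cells (limma, adjusted p = 0.0042). Sox6, another SoxD gene and a partner of Sox9 in cartilage, was 5.20-fold higher (2.38 ± 0.52, limma, adjusted p = 0.021), but the call was lost without any of 5 of the 6 E12.5 pools, all but XY pool 2 (adjusted p up to 0.078). The median of the list was 0.12 at E12.5, against a median near 0 over all genes.

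Ovarian genes that oppose Sox9 showed no called difference at E11.5 (0 of 12, median -0.31; 0.00556% of genes were called lower). At E12.5, 10 of 12 were lower in XY and 0 higher, against 5.52% and 5.59% of genes, with a median of -2.64. Follistatin, Fst, an activin antagonist of pregranulosa cells, read 12.68 to 12.74 in XX and 5.94 to 6.47 in XY, 90.3-fold lower in XY (-6.50 ± 0.49, limma, adjusted p = 4.5e-05). Rspo1, which boosts Wnt signalling in the ovary, was 15.6-fold lower (limma, adjusted p = 6.1e-05), the Wnt readout gene Axin2 3.63-fold lower (limma, adjusted p = 4.7e-05) and the ovarian factor Foxl2 9.83-fold lower (limma, adjusted p = 9.8e-05). With the mean of each gene's probe sets Axin2 differed by -1.01 and Foxl2 by -1.79, both still called. In XX cells 4 of these 12 rose between the days, against 2.55% of genes. No SoxE probe set was called lower there, but Sox8 and Sox9 1433889_at already averaged 5.25 and 4.66 in XX at E11.5. Those means lie among or near the readings seen without target, where a fall could hardly be read. In XY cells 5 of 12 fell, against 2.54%, but this count was 1 when XY E11.5 pool 3 was left out, 2 when XY E12.5 pool 3 was, and 3 without XY E11.5 pool 2, without XY E12.5 pool 1 or with the XY arrays fitted alone.

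The 12 testis genes that act with or after Sox9 were mostly called at E12.5 and not at E11.5. A lack of a call does not mean equal levels. Their mean deviation from the average array was 1.06, 0.37 and -0.15 in the XY E11.5 pools, above the -1.11 to -0.93 of XX E11.5. At E11.5 only Fgf9 was called higher in XY, against 0.05% of genes, and 0 lower (median 0.68). The count was 0 when only that day's arrays were fitted and 3 without XY E11.5 pool 3. At E12.5 all 12 were higher in XY, against 5.59% of genes, with a median of 4.26. Within XY cells 7 of 12 rose between the days, against 4.47% of genes, and 0 fell; with the XY arrays fitted alone 4 rose. For 5 of 12 the sex difference grew, against 1.28% of genes, and for 8 of 12 when XY E11.5 pool 1 was left out.

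Dhh read 7.21 to 7.30 in XX and 12.70 to 12.78 in XY at E12.5, 45.2-fold higher in XY (5.50 ± 0.45, limma, adjusted p = 7.6e-05), and the mean of its 2 probe sets gave 3.05. Aard, a gene of Sertoli cells, was 20.2-fold higher (4.33 ± 0.38, limma, adjusted p = 0.0001). Amh, the Sertoli hormone that removes the Müllerian duct and is a classic Sox9 target, was also higher: it read 6.48 to 6.55 in the XY pools of E11.5 and 7.38 to 8.87 a day later, 2.78-fold above XX (limma, adjusted p = 0.015).

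Cbln4, a secreted protein gene, parted the sexes in another way. It read 10.28, 9.58 and 10.18 in XX and 11.09, 10.37 and 9.75 in XY at E11.5, so both sexes were high and overlapped. At E12.5 it read 6.06, 5.76 and 6.19 in XX and 11.28, 10.62 and 11.07 in XY. The difference of at least 31.7-fold (4.99 ± 0.33, limma, adjusted p = 2.3e-05) went with a fall of 4.01 between the days in XX cells (limma, adjusted p = 0.00086), while the day difference in XY cells was 0.59 and not called (limma, adjusted p = 0.36).

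Of the 8 testis genes that have a promoter in the RefSeq table, Cbln4 alone held AACAAT, the SOX-type hexamer, within 250 bases of its start. It is shown for that reason and was picked after the search; on GRCm38.p6 the window is chr2:172043467-172043716 on the minus strand. The capitals mark the hexamer read on the opposite strand, 242 bases before the start.
Cbln4: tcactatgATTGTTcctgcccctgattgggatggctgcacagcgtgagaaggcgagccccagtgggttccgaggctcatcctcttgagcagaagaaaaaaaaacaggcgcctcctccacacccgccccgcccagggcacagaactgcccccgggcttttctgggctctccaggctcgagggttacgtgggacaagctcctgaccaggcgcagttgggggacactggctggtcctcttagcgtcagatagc
The window is 60.8% G and C. With AACAAT in 9.42% of all windows, 1 of 8 is close to the background.

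Known cartilage targets of SoxE were called in part. Of the 18 listed genes 14 were measured. None of the 14 was called at E11.5 (median 0.19), when only 0.05% of all genes were called higher in XY. At E12.5, 6 were higher in XY and 0 lower, against 5.59% and 5.52% of genes, with a median of 0.75: Col9a3, Col9a2, Wwp2, Sox6, Mia and Cnmd. The count was 3 without XX E12.5 pool 2, XX E12.5 pool 3 or XY E12.5 pool 3. Col9a3, a chain of type IX collagen, was 65.6-fold higher (6.04 ± 0.46, limma, adjusted p = 4.6e-05), and its partner chain Col9a2 was 5.35-fold higher (2.42 ± 0.21, limma, adjusted p = 0.00011). Wwp2, a ubiquitin ligase gene bound by Sox9 in cartilage, was 3.49-fold higher (limma, adjusted p = 0.0091). With the mean of each gene's probe sets Col9a3 differed by 5.05 and Wwp2 by 1.07. Col9a3 and Col9a2 were also the 2 that rose within XY cells, a count that was 4 without XY E11.5 pool 1 and 4 or 5 under 6 of the other alternatives.

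Known glial and pigment cell targets of SoxE gave 0 called of 11 measured at E11.5, when 0.05% of all genes were called higher in XY. At E12.5, 4 of the 11 were higher and 1 lower, against 5.59% and 5.52% of genes, with a median of 0.25. Erbb3, the neuregulin receptor of glia, read 6.93 to 7.65 in XX and 11.63, 11.92 and 11.83 in XY, 22.2-fold higher (4.47 ± 0.50, limma, adjusted p = 0.00045), and the mean of its 2 probe sets gave 2.28. At E11.5 it read 7.77, 6.77 and 5.64 in XY against 6.58 to 7.98 in XX.

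Pmp22, a myelin protein gene, went the opposite way and was 2.88-fold lower in XY (-1.53 ± 0.18, limma, adjusted p = 0.00073). Myelin genes Mbp (1.5, limma, adjusted p = 0.014, and 2.29 for the mean of its probe sets) and Cnp (1.33, limma, adjusted p = 0.017) were higher, as was the pigment cell factor gene Mitf (2.08, limma, adjusted p = 0.018). Of these, Mbp and Cnp lost their calls when some single E12.5 pools were left out (adjusted p up to 0.06), and the count higher fell to 1 when XX E12.5 pool 3 was left out and to 2 when XY E12.5 pool 1 was.

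**Figure D4:**
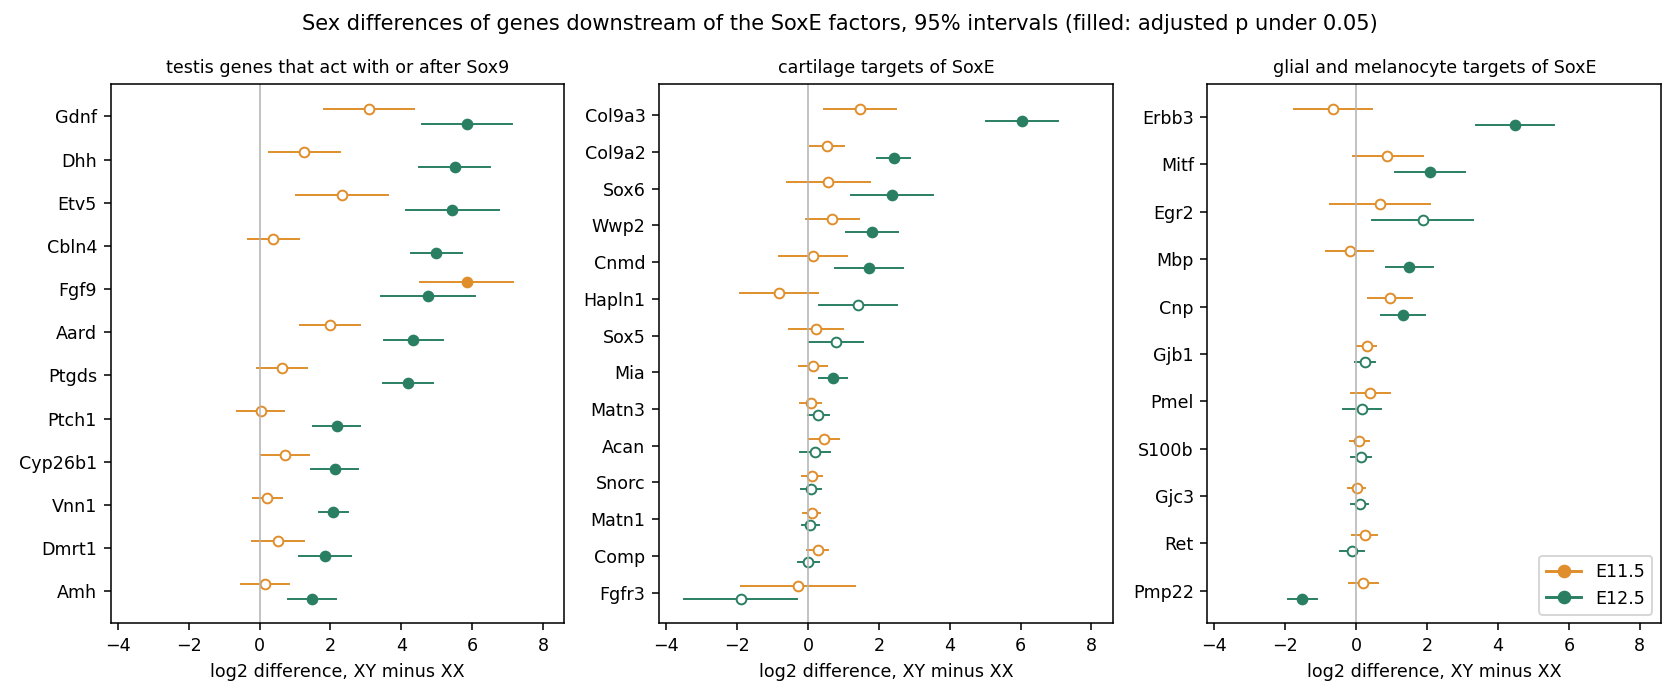
XY minus XX log2 differences at E11.5 and E12.5 for the testis, cartilage and glial or pigment cell genes downstream of SoxE, by the brightest probe set of each gene. All 12 testis genes lie above 0 at E12.5, led by Gdnf at 5.86 and Dhh at 5.50, while Pmp22 lies at -1.53.

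Sox10 is also a marker of neural crest and Schwann cell precursors, so markers of those cells were read beside it. At E12.5, 5.59% of all genes were called higher in XY and 5.52% lower. The shares on the earlier day were 0.05% and 0.00556%. Between the days in XY cells 4.47% of genes rose and 2.54% fell. Of the 9 crest and Schwann markers measured, 0 were called in any of these comparisons, which is near those shares. Their mean deviation from the average array was 0.04, 0.06 and -0.15 in the XY E12.5 pools, where Sox10 1451689_a_at was highest, -0.19 to 0.04 in XX E12.5, -0.16 to 0.04 in XY E11.5 and -0.31 to 0.70 in XX E11.5. Foxd3 read 4.36 to 5.09 and Zic1 3.62 to 3.82 on all arrays, among the readings seen without target. The part of such cells in the Sox10 result was not tested.

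Sertoli markers, several of which are in the testis list, were called higher in XY for 2 of 9 at E11.5 and 9 of 9 at E12.5, and pregranulosa markers lower for 0 of 8 and 8 of 8. The 2 at E11.5 were Fgf9 and Mmd2. The Mmd2 call (3.08, limma, adjusted p = 0.041) was lost in 10 of the 12 fits that left out a pool. Of all genes 5.59% were called higher in XY on the later day and 5.52% lower. On the earlier day these shares were 0.05% and 0.00556%. The Sertoli and pregranulosa lists were chosen with earlier results of these data known. Their counts therefore describe the cells and are no separate test. Mesonephric markers gave 0 called of 5 at E11.5 and 1 lower at E12.5, Emx2, with deviations of -0.79 to -0.69 in XY E12.5 and 0.11 to 0.61 in XX E12.5. Germ cell (7 measured) and endothelial (10 measured) markers gave 0 calls between the sexes, and macrophage (9) and mesenchyme (7) markers 1 each at E12.5. Between the days in XY cells 2 of 9 macrophage markers, Fcgr3 and Cd68, were called higher, against 4.47% of genes. The median of the 9 was 1.32, against 0.06 over all genes. Deviations of the macrophage markers were -1.11 to -0.37 in XY E11.5 and 0.35 to 0.73 in XY E12.5. In XX they were 0.44, 0.70 and -0.50 in the E11.5 pools, where Sox8 read 4.97, 5.13 and 5.65, and -0.23 to 0.11 at E12.5. The part of macrophages in the XY rise of Sox8 and Sox10 was not tested. XX E11.5 pool 2 stood apart, with endothelial markers 2.05 and mesenchyme markers 1.82 above the average array. Without it the E11.5 difference was 4.46 for Sox9 1424950_at and 3.62 for 1451538_at, both still called (limma, adjusted p = 0.0073 and 0.0069).

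Genes next to the members in RefSeq's order were read as well, the 3 measured on each side. Beside Sox9, BC006965, the nearest on its low-coordinate side, read 5.13 to 5.40 in XX and 9.01, 9.23 and 8.69 in XY at E12.5, at least 13.5-fold higher in XY (3.75 ± 0.22, limma, adjusted p = 1.4e-05). The mean of the BC006965 probe sets gave 1.29, still called. At E11.5 its XY pools read 5.77, 5.66 and 5.04, which overlapped XX at 4.71 to 5.22 (0.49, limma, adjusted p = 0.73), so it was called a day later than Sox9.

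On the other side of Sox9, 2610035D17Rik was 7.08-fold higher in XY at E12.5 (2.82 ± 0.32, limma, adjusted p = 0.00051), and 1.32 by the mean of its probe sets. Its E11.5 difference was 1.20 (limma, adjusted p = 0.44), with 7.50, 7.41 and 6.67 in XY above 5.77 to 6.18 in XX. Gm11681, which lies nearer to Sox9, and 4732490B19Rik, which lies farther, gave 0.09 and 0.05 at E12.5. Neither was called (limma, adjusted p = 0.82 and 0.92). Kcnj2, a potassium channel gene beyond BC006965, read 3.62 to 3.94 on all arrays, among the readings seen without target.

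Beside Sox8, the noncoding gene Cerox1 was 3.63-fold higher in XY at E12.5 (1.86 ± 0.26, limma, adjusted p = 0.0018) and rose 3.80-fold within XY cells (limma, adjusted p = 0.0024). Lmf1, a lipase maturation gene, rose 3.10-fold within XY cells (1.63, or 0.91 by the mean of its probe sets, limma, adjusted p = 0.0098) and was 0.97 above XX at E12.5 without a call (limma, adjusted p = 0.073). Gng13, a G protein subunit gene and a pregranulosa marker, was at least 12.7-fold lower in XY at E12.5 (-3.67, or -1.95 by the mean of its probe sets, limma, adjusted p = 4.9e-05). Neighbours of Sox8 on 1 side therefore differed in opposite directions. None of the 6 neighbours of Sox10 was called between the sexes at E12.5, from Pick1 at 0.38 (limma, adjusted p = 0.14) to 1700088E04Rik at -0.74 (limma, adjusted p = 0.18).

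**Figure D5:**
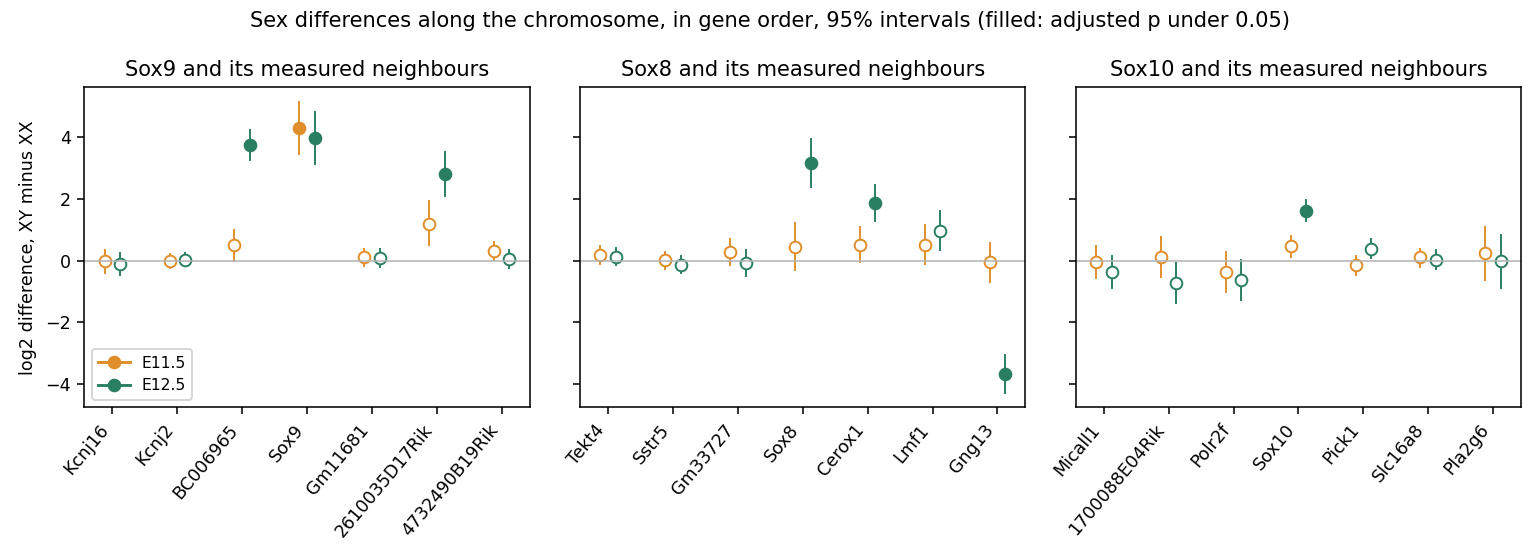
XY minus XX log2 differences at E11.5 and E12.5 of the 3 measured genes on each side of Sox9, Sox8 and Sox10, in RefSeq order and not to distance. BC006965 beside Sox9 lies at 3.75 at E12.5, and Gng13 beside Sox8 at -3.67.

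The genes most like each member were sought among 11650 genes by Pearson correlation over the 12 arrays, a description of arrays that share their groups. For Sox9 the closest was Eif2s3y (r = 0.977), the Y-linked gene absent from XX cells, then Ccdc160 (0.958) and Fgf9 (0.939). For Sox8 they were Dhh (0.986) and Col9a3 (0.982), and for Sox10 1451689_a_at Fxyd6 (0.978), an ion pump regulator, and Acap1 (0.975). The 3 sets of 8 genes shared 0 members. The choice depends on the measure: by Spearman correlation the sets kept 1, 0 and 1 of their 8 genes for Sox9, Sox8 and Sox10.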

How the data were processed

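RNA of sorted cells was isolated with the PicoPure kit, amplified in 2 rounds and biotin-labelled, per the labels' protocols, and amplification can compress or distort differences at low levels. The authors deposited log2 values, 1 for each probe set on each array. How these were summarised and normalized is not given in the sources used here, nor is the log base, which was taken as 2 from the range of the values. Of 45037 probe sets, 798 blank on every array and 1 blank on a single array were left out, which left 44238. Platform annotation gave 34328 a single symbol, 850 several and 9060 none, and 34126 matched RefSeq by Entrez identifier. Array medians ran from 6.49 to 6.59.

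The 4 group means were fitted over all 12 arrays with limma 3.58.1 (lmFit, eBayes) in R 4.3.3, with 8 residual and 2.11 prior degrees of freedom, on the deposited values without further normalization. The fit was tested on simulated data. Two-sided p-values were adjusted by Benjamini-Hochberg. Figures used matplotlib 3.10.9. A gene outside the members is given by its brightest probe set, and up to 4 genes per list are named by p in the comparison described, beside the genes most like a member and the neighbours. The members and lists were chosen with earlier results of these data known; list members that moved and number 5 or fewer, or illustrate the pools, are also named. Some listed genes were not analysed here, and counts are of the measured members.

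Pool numbers recur in the groups. Same-numbered pools correlated in their deviations at -0.398 to 0.235, so the numbers were not taken as pairs. Promoters of Sox9 and Sox10, and protein sequences, were not used here.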

Additional observations from a re-analysis of the deposited data

Results flagged for a closer look

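The test of whether the sex difference changed between E11.5 and E12.5 (limma, 3 pools per group) passed for the following members, listed genes, neighbours and genes like a member, given as the log2 change of the XY minus XX difference with its adjusted p; a positive value means that XY gained on XX. Among the members these were Sox8 at 2.71 (0.024) and Sox10 1451689_a_at at 1.16 (0.025), and no Sox9 probe set.

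Testis genes that gained were Cbln4 at 4.60 (0.0013), Dhh at 4.24 (0.0092), Ptgds at 3.55 (0.0038), Ptch1 at 2.14 (0.036) and Vnn1 at 1.86 (0.0062). Cartilage genes Col9a3 at 4.56 (0.0067) and Col9a2 at 1.88 (0.014) gained with them, as did Erbb3 at 5.12 (0.0058). Sry, high in XY cells at E11.5 only, changed by -1.57 (0.0067), and the other genes that lost were Pmp22 at -1.73 (0.009), Lhx9 at -3.86 (0.0001), Fgfr2 at -2.27 (0.0033), Fst at -5.07 (0.0054), Rspo1 at -3.62 (0.0035), Axin2 at -1.59 (0.0038), Foxl2 at -2.71 (0.0087), Nr0b1 at -2.29 (0.011), Bmp2 at -2.40 (0.025), Emx2 at -3.0 (0.0027), Irx3 at -3.86 (0.022) and Irx5 at -3.64 (0.007). The macrophage marker Fcgr3 passed at 2.39 (0.013). Leaving out XY E11.5 pool 1 or 3 moved Dhh to 4.85 or 3.64 and Col9a3 to 5.19 or 3.97, and leaving out XX E11.5 pool 2 or 3 moved Fst to -4.48 or -5.72. With the mean of each gene's probe sets Ptgds gave 4.33, Dhh 2.41, Erbb3 2.61, Col9a3 3.52, Lhx9 -2.23, Axin2 -0.82 and Foxl2 -1.60, all still called, and Fgfr2 gave -1.03, not called (0.11).

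Beside Sox9, BC006965 changed by 3.26 (0.0011), and beside Sox8, Gng13 by -3.62 (0.002). Of the genes chosen for likeness to Sox8, Sowahb changed by 3.42 (0.013), Hcrtr1 by 3.02 (0.0018), Prss12 by 2.12 (0.044), Vxn by 1.77 (0.0062) and Zc3h7b by 1.51 (0.0067). Of those like Sox10, Acap1 changed by 2.75 (0.0039), Fxyd6 by 2.29 (0.0047), Gstm7 by 2.05 (0.029), Zar1 by 1.90 (0.018), Fzd9 by 1.86 (0.034) and Slc13a2 by 1.52 (0.019). These genes were picked for a pattern like that of Sox8 or Sox10, so their values are a description. The mean of each gene's probe sets gave 1.04 for BC006965, -1.95 for Gng13, 1.29 for Acap1 and 0.72 for Zc3h7b, and 0.96 for Gstm7, which was then not called (0.063).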

How the results depend on the processing

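The Sox9 1451538_at sex calls, the E12.5 sex calls and XY day calls of Sox8 and Sox10 1451689_a_at, and the Sox9 1424950_at call at E12.5 kept direction and side of the threshold in every alternative run. With the compared arrays alone, Sox9 1424950_at at E11.5 was still 4.31 but not called (limma, adjusted p = 0.23). The growth of the Sox10 difference was 1.16 with the pool number as a block (adjusted p = 0.057) and 0.38 with the mean of its probe sets (adjusted p = 0.20). The mean of probe sets turned the uncalled XX day difference of Sox9 to 0.06 and of Sox10 to 0.12, and array weights turned the E12.5 difference of Sox10 1424985_a_at to -0.01. The block otherwise changed 1 member call, that of Sox9 1433889_at at E12.5 (adjusted p = 0.056) and moved no count of called probe sets by over 1.5 times.

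Counts of called probe sets were 12 for the sexes at E11.5, both with the compared arrays alone and with 1 probe set per gene, against 30. They were 5794 for the sexes at E12.5 with array weights (3416 otherwise), 2405 with weights and 624 with the compared arrays alone for the days in XX (1378), and 1430 with 1 probe set per gene for the days in XY (2726). Leaving out each pool in turn gave 23 to 57 for the sexes at E11.5, 2054 to 3765 at E12.5, 183 to 1945 for the days in XX, 1277 to 3077 in XY and 403 to 1273 for the change of the sex difference.

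Leaving out each pool moved the growth of the sex difference over 2.42 to 3.16 for Sox8 and 1.01 to 1.29 for Sox10 1451689_a_at, with the calls lost as given above. It turned the sign of uncalled values near 0: the XX day difference ran from -0.38 to 0.11 for Sox9 1424950_at, -0.21 to 0.07 for 1433889_at, -0.24 to 0.10 for Sox8, -0.17 to 0.01 for Sox10 1451689_a_at and -0.0037 to 0.20 for 1425369_a_at. The XY day difference ran from -0.65 to 0.08 for Sox9 1424950_at and -0.06 to 0.28 for 1433889_at. The sex difference at E11.5 ran from -0.0013 to 0.75 for Sox8 and -0.01 to 0.19 for Sox10 1424985_a_at, which ran from -0.06 to 0.12 at E12.5. Its change ran from -0.59 to 0.15 for Sox9 1424950_at, -0.18 to 0.03 for Sox10 1424985_a_at and -0.04 to 0.17 for 1425369_a_at. The cause of these changes was not tested.

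The filter on brightness gave no value for Sox8, Sox9 1433889_at or Sox10 1425369_a_at, whose means lie below the median. The planned comparison of member proteins was not run. With 3 pools per group the number of arrays limits the precision.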
